A study of Mus musculus with 12 samples.

Results

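Solute carrier genes encode the membrane proteins that move nutrients, ions, metals and metabolites across the cell surface and between organelles. They were examined here in thymic invariant natural killer T (iNKT) cells, innate-like T cells with an invariant receptor for glycolipids bound to CD1d. Members were all genes with an Slc or Slco family symbol whose mean over the 12 libraries was at least 5 on the CPM scale that the authors deposited, pseudogene and opposite-strand symbols left out. The rule found 156 members among 48709 genes in the table, out of 378 Slc and Slco genes in all, and the other 222 lay below the minimum. The members nearest to the minimum were Slc25a42 at 5.10, Slc25a35 at 5.19 and Slc25a28 at 5.21, and the nearest genes outside it were Slc18a2 at 4.91, Slc7a4 at 4.81 and Slc24a1 at 4.29.

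RNA was sequenced from NK1.1- and NK1.1+ iNKT cells sorted from the thymus of C57BL/6J mice aged 7 weeks. The miR-155KI mice were CD4Cre+ with both copies of the Rosa26 miR-155 knock-in allele, so that Cre under the Cd4 promoter switched on miR-155 across the T cell lineage, including cells other than iNKT cells. The WT mice were littermates that carried the same knock-in allele without CD4Cre. Thymocytes were depleted of CD8+ cells and sorted by staining for TCRβ, a CD1d tetramer, CD44 and NK1.1, and each pool of each genotype had 3 libraries, 4 groups in all. The study's methods speak of pooled biological replicates, although 3 libraries per group are in the tables, and the labels do not tie libraries to separate mice, so each p-value covers the spread among these libraries and nothing wider.

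Solute carriers are grouped into numbered families by sequence, and the family usually sets the substrate. T cells that grow or divide take up glucose, large neutral amino acids, glutamine, iron and folate through such proteins, export lactate, and exchange ATP, phosphate and metabolites across the inner mitochondrial membrane through the Slc25 family. NK1.1 appears on iNKT cells late in thymic maturation. The NK1.1+ pool is therefore rich in mature, interferon-γ-producing iNKT1 cells, whereas the NK1.1- pool holds earlier cells together with the IL-4-producing iNKT2 and IL-17-producing iNKT17 cells.

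Libraries held 12819476 to 20518257 counts, and the 156 members took 0.912% to 1.12% of them. Levels below are CPM, the count scaled to library size (by TMM over all 12 libraries). Mir155hg, the host transcript of miR-155, lay at 9.65 to 13.7 CPM in the WT libraries and at 95.2 to 144 CPM in the miR-155KI libraries. Klrb1c, which encodes NK1.1, lay at 36.7 to 79.9 CPM in NK1.1- and at 358 to 774 CPM in NK1.1+ libraries; the 10 iNKT and T cell markers summed to 4797 to 7386 CPM, with 1 of them at 0 throughout. Replicate 1 of WT stood apart from the other WT libraries in both pools, with Xist at 12.6 and 11.4 CPM against 135 to 237 CPM and the Y-linked gene Ddx3y at 52.5 and 62.5 CPM against 3.29 to 6.92 CPM. All 6 miR-155KI libraries resembled WT replicate 1 in this respect (Xist 8.19 to 35.0 CPM, Ddx3y 55.5 to 76.6 CPM). The 15 macrophage markers summed to 230 to 880 CPM in the miR-155KI NK1.1+ libraries and to 38.6 to 41.7 CPM in the WT NK1.1+ libraries, and 2 of them, C1qa and C1qc, were called higher by genotype in that pool.

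The members fell by family number into 15 roles. The substrate of each single gene was not used, so a role can hold members that carry something else. The largest were 36 mitochondrial carriers, 20 carriers of zinc, iron, copper, magnesium and manganese, 18 exchangers of bicarbonate, chloride, sodium, potassium, protons and calcium, 18 nucleotide sugar carriers of the Golgi and endoplasmic reticulum, and 16 amino acid carriers. The 8 glucose and other sugar carriers, 7 lipid and choline carriers, 7 vitamin and cofactor carriers, 5 monocarboxylate carriers, 5 organic ion carriers, 5 peptide and lysosomal carriers and 4 nucleoside carriers were smaller groups, as were the 4 sugar phosphate carriers, the phosphate pair Slc20a1 and Slc20a2, and the urea transporter Slc14a1 alone. The 10 highest members took 41.1% of the summed CPM of all members.

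Per kb of exon, the ADP/ATP carrier Slc25a5, which exports ATP from mitochondria, was the highest member at 494 CPM per kb over the 12 libraries. Slc3a2, the CD98 heavy chain that partners the large amino acid transporters, followed at 186 CPM per kb. Below it stood the mitochondrial phosphate carrier Slc25a3 at 104 CPM per kb, the glutamine and neutral amino acid carrier Slc1a5 at 104 CPM per kb, the sugar carrier Slc50a1 at 98.1 CPM per kb and Slc25a4, the other main ADP/ATP carrier of somatic cells, at 81.7 CPM per kb. Slc29a1, the equilibrative nucleoside transporter, ranked the tenth at 58.9 CPM per kb. Levels of genes with near-identical copies in the genome, such as Slc25a5, are uncertain to the extent that the authors' counting split reads between copies.

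**Figure D1:**
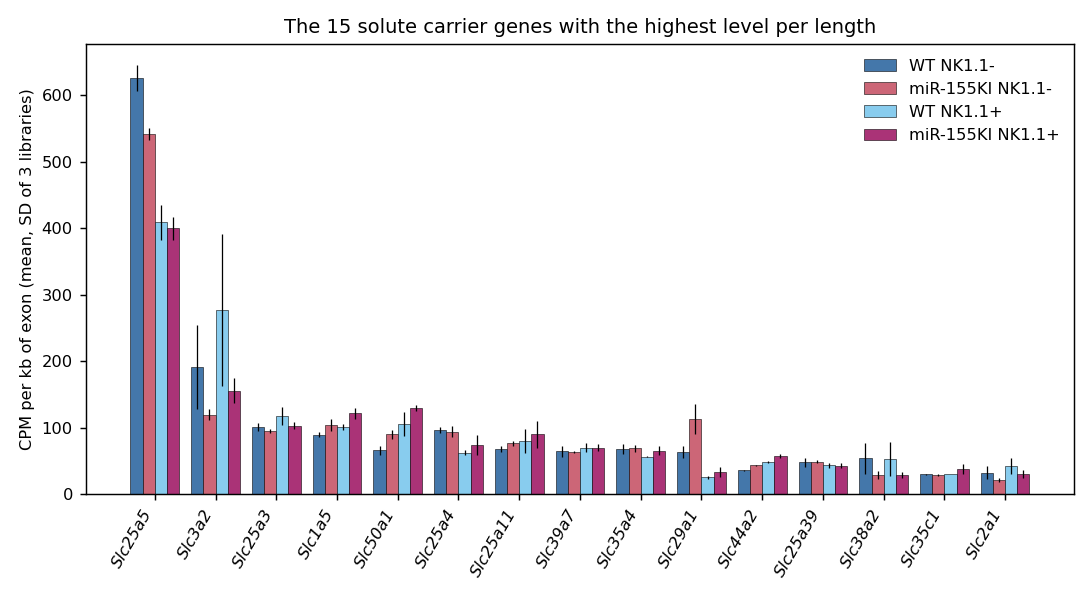
Levels of the 15 solute carrier genes with the highest level per length, as the mean CPM per kb of exon in each of the 4 groups, with bars for the SD of 3 libraries. Slc25a5 stood at 494 CPM per kb over all libraries, and the error bars of Slc3a2 are the widest in the WT groups.

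Most members differed little between the groups. The fold between the highest and the lowest of the 4 group means had a median of 1.51 and ran from 1.05 to 12.5. It was at least 2 for 34 members and below 1.5 for 78 members. The highest mean fell in miR-155KI NK1.1- cells for 50 members, in miR-155KI NK1.1+ cells for 48, in WT NK1.1+ cells for 33 and in WT NK1.1- cells for 25.

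The first comparison asked how the transporters differ between NK1.1+ and NK1.1- iNKT cells. In WT libraries 23 members were higher in NK1.1+ cells and 17 were lower at an edgeR adjusted p under 0.05, and 116 were not called. That is 14.7% and 10.9% of the members, beside 9.89% of all 13555 genes tested called higher and 10.9% called lower. For the genes that reach the same level minimum as the members the shares were 12.2% and 12.6%. In miR-155KI libraries 14 members were higher and 11 were lower, 8.97% and 7.05% of the members, beside 7.92% and 6.15% of the 12942 genes tested. Among genes at the same level minimum these shares were 9.66% and 6.52%. The share called higher in WT was above that of all genes tested and nearer to that of genes at the same level, and the other 3 shares lay near the background. The median log2 fold change of the members was 0.08 in WT and -0.04 in miR-155KI, beside 0.01 and 0.03 over all genes tested. The pools did not overlap for 43.6% of the members in WT and 45.5% in miR-155KI, beside 39.0% and 34.5% of all genes tested. All genes tested include genes below the members' level minimum, and overlap was not computed for genes at the same level.

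The WT and miR-155KI comparisons used separate libraries, and 19 members passed in both, all in the same direction. They made up 47.5% of the 40 members called in WT and 76% of the 25 called in miR-155KI. Of the members called in WT, 37 of 40 had the same sign in miR-155KI, and 25 of 25 called in miR-155KI had the same sign in WT. Lower in NK1.1+ cells in both genotypes were Slc15a1, Slc22a3, Slc25a5, Slc27a1, Slc29a1, Slc43a2, Slc46a1 and Slc9b2, and higher in both were Slc11a2, Slc14a1, Slc16a6, Slc20a1, Slc26a11, Slc28a2, Slc2a3, Slc44a2, Slc50a1, Slc8b1 and Slc9a7. In bulk pools, fewer cells of a type that carries a transcript and less of that transcript per cell cannot be told apart. The iNKT1 markers summed to 5733 to 7066 CPM in WT NK1.1+ libraries against 1323 to 1651 CPM in WT NK1.1- libraries (10 of 10 called higher), the iNKT2 markers to 1394 to 1578 CPM against 2750 to 3004 CPM (6 of 7 called lower) and the iNKT17 markers to 38.3 to 78.9 CPM against 180 to 286 CPM (8 of 11 called lower). The sums in miR-155KI were 4327 to 6832 against 772 to 957 CPM, 1721 to 1823 against 3944 to 4027 CPM and 40.8 to 63.5 against 51.9 to 75.6 CPM (10 of 10, 7 of 7 and 1 of 11 called). None of these markers was at 0 in any library. Markers of other cells also moved in the miR-155KI comparison: 6 of 15 macrophage markers (C1qa, C1qb, C1qc, Csf1r, Adgre1 and Sirpa) were called higher in NK1.1+ cells, with sums of 230 to 880 CPM against 41.0 to 114 CPM, and 2 of 8 B cell markers (Cd79b and Ighm), with sums of 245 to 305 CPM against 79.4 to 114 CPM. The part of any of these lists in the transporter differences was not tested.

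**Figure D2:**
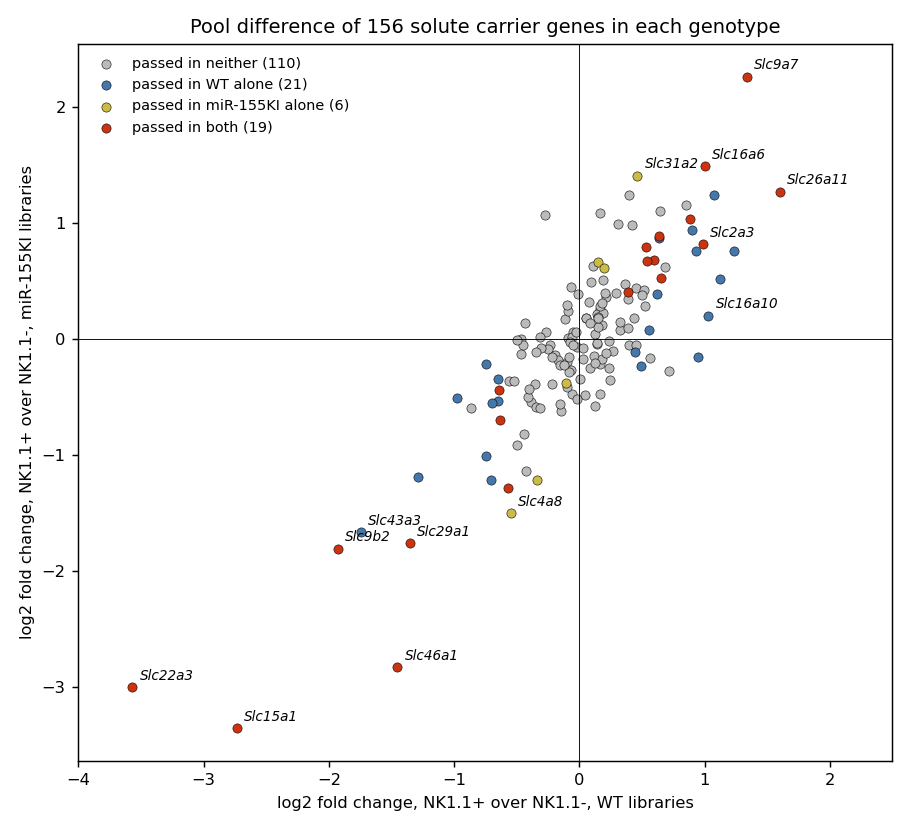
Log2 fold change of NK1.1+ over NK1.1- cells for each of the 156 members, in WT libraries (horizontal axis) and in miR-155KI libraries (vertical axis), coloured by the edgeR call. The 19 members called in both genotypes lie at the lower left or the upper right, with Slc22a3 and Slc15a1 farthest to the lower left.

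The widest pool difference was that of Slc22a3, a transporter of organic cations such as histamine and other monoamines. It lay at 57.6, 42.8 and 61.5 CPM in the WT NK1.1- libraries and at 4.70, 4.44 and 4.76 CPM in the WT NK1.1+ libraries, a log2 fold change of -3.57 (SE 0.19, edgeR adjusted p = 4.47e-06). In miR-155KI it lay at 60.7, 35.3 and 77.1 CPM and at 12.1, 4.86 and 4.67 CPM, a log2 fold change of -3.00 (edgeR adjusted p = 0.00143). The pools did not overlap in either genotype, and the highest NK1.1+ library, miR-155KI replicate 1, was also the library with the most RNA of double-positive thymocyte markers (211 CPM, 8.48 to 21.6 CPM in the other libraries of its group), whose part was not tested.

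Slc15a1, a proton-coupled carrier of short peptides, lay at 16.5, 11.96 and 18.6 CPM in WT NK1.1- libraries and at 3.05, 2.45 and 1.70 CPM in WT NK1.1+ libraries. The miR-155KI values were 33.5, 26.8 and 29.01 CPM and 4.58, 1.70 and 2.46 CPM. Every NK1.1- library was above every NK1.1+ library, and the log2 fold changes were -2.73 in WT and -3.36 in miR-155KI (edgeR adjusted p = 0.0001 and 0.000446).

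The nucleoside carriers split in direction. Slc29a1, which lets nucleosides pass down their gradient, lay at 221, 252 and 295 CPM in WT NK1.1- and at 106, 109 and 93.5 CPM in WT NK1.1+ libraries, a log2 fold change of -1.35 (SE 0.14, edgeR adjusted p = 6.54e-05). In miR-155KI the values were 530.1, 356 and 472 CPM and 136, 165 and 101 CPM, a log2 fold change of -1.76 (edgeR adjusted p = 0.000423). The pools stayed apart in both genotypes. Slc28a2, which concentrates purine nucleosides with sodium, was higher in NK1.1+ cells, at 81.6, 83.4 and 70.7 CPM against 124, 108 and 119 CPM in WT (log2 fold change 0.54, edgeR adjusted p = 0.0109) and by 0.67 on the log2 scale in miR-155KI (adjusted p = 0.00617).

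The folate carriers Slc19a1 and Slc46a1 were called lower in WT NK1.1+ cells. Slc19a1, the reduced folate carrier, lay at 69.3, 70.7 and 82.6 CPM in WT NK1.1- and 42.1, 36.2 and 37.4 CPM in WT NK1.1+ libraries without overlap, a log2 fold change of -0.97 (edgeR adjusted p = 0.000455), and of -0.51 in miR-155KI, where it was not called (adjusted p = 0.0985). Slc46a1, the proton-coupled folate carrier, lay at 11.1, 8.24 and 8.53 CPM and 3.00, 2.10 and 5.26 CPM in WT and at 12.6, 11.8 and 9.05 CPM and 3.25, 0.702 and 0.757 CPM in miR-155KI. Its log2 fold changes were -1.45 and -2.83 (edgeR adjusted p = 0.0122 and 0.0175). The lysosomal relative Slc46a3 went the other way in WT, from 7.05, 7.21 and 6.47 CPM to 11.8, 16.3 and 16.6 CPM (log2 fold change 1.07, edgeR adjusted p = 0.00616). Of the 7 vitamin and cofactor carriers 1 was called higher and 2 lower in WT, beside 9.89% and 10.9% of all genes tested.

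**Figure D3:**
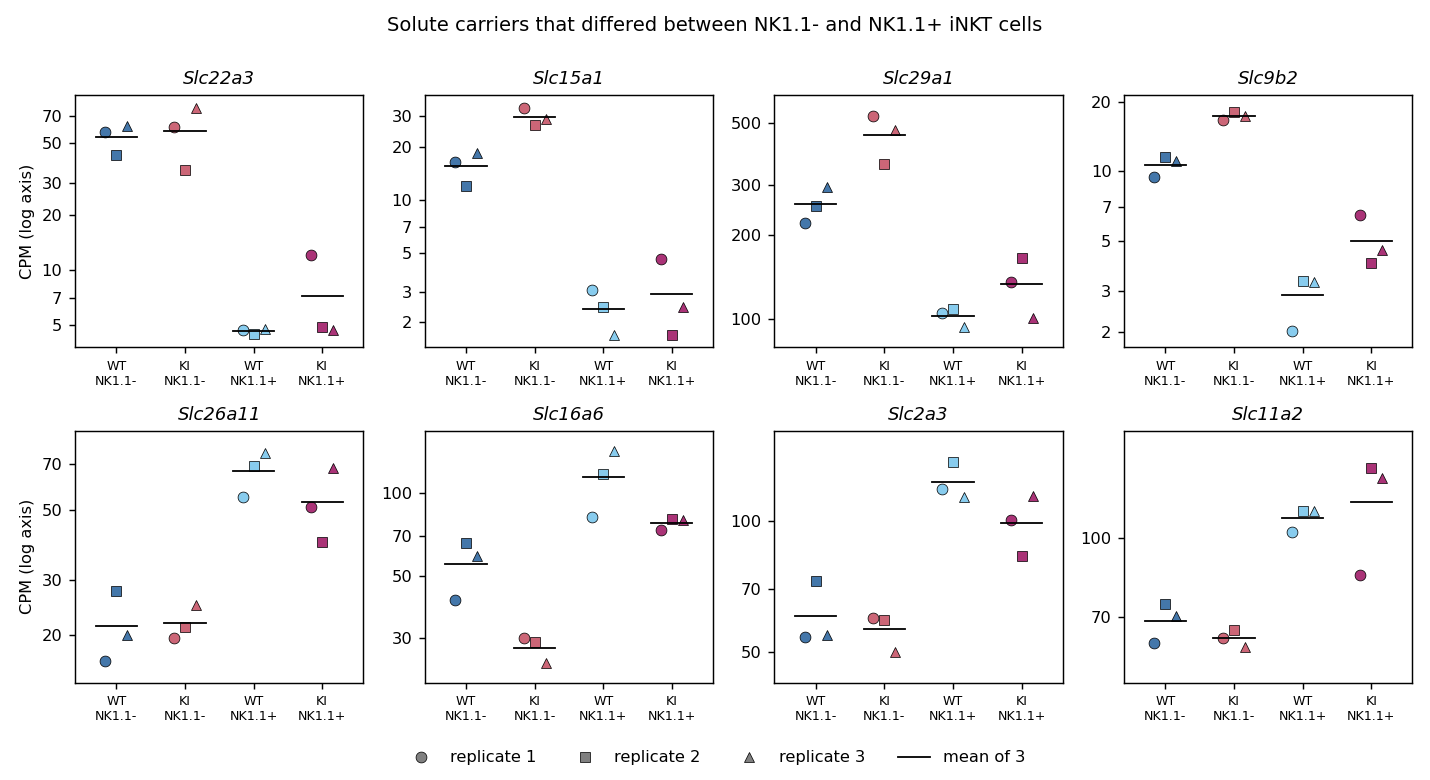
CPM (log axis, own range in each panel) of 8 members in the 12 libraries, by group, with a mark for each replicate and a line at the mean of 3. The 4 members in the upper row were lower in NK1.1+ than in NK1.1- libraries, and the 4 in the lower row were higher, in both genotypes and without overlap of the pools.

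Of the 8 members placed by family number with the sugar carriers, 3 were called higher in WT NK1.1+ cells and 2 in miR-155KI NK1.1+ cells. None was called lower. All genes tested were called higher at 9.89% in WT and 7.92% in miR-155KI, and lower at 10.9% and 6.15%. The 8 include Slc2a9 and Slc5a6, whose own substrates were not considered. Slc2a3, the high-affinity glucose transporter GLUT3, lay at 54.3, 72.8 and 54.8 CPM in WT NK1.1- and at 119, 137 and 114 CPM in WT NK1.1+ libraries, and at 60.02, 59.2 and 50.05 CPM and 101, 83.3 and 114 CPM in miR-155KI. The pools did not overlap, and the log2 fold changes were 0.99 and 0.82 (edgeR adjusted p = 0.000914 and 0.00807). Slc2a1, the common glucose transporter GLUT1, was not called, at 73.4, 129 and 135 CPM and 102, 186 and 157 CPM in WT (log2 fold change 0.36, edgeR adjusted p = 0.433), but with same-numbered WT libraries paired its log2 fold change of 0.37 had an adjusted p of 0.0229, and with the ratio of Y-linked to Xist RNA as a covariate 0.42 had 0.0111. Slc50a1 was called in both genotypes, with log2 fold changes of 0.65 and 0.52 (edgeR adjusted p = 0.0092 and 0.0131).

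The monocarboxylate carriers divided. Slc16a1 and Slc16a3, the lactate carriers MCT1 and MCT4, were lower in WT NK1.1+ cells. Slc16a1 lay at 65.1, 81.9 and 67.7 CPM in NK1.1- and 36.00, 55.00 and 40.3 CPM in NK1.1+ libraries of WT (log2 fold change -0.74, edgeR adjusted p = 0.0116), and in miR-155KI its log2 fold change was -0.21 (adjusted p = 0.594). Slc16a3 had log2 fold changes of -0.74 in WT and -1.01 in miR-155KI (edgeR adjusted p = 0.0217 and 0.186). Emb, the embigin partner that brings monocarboxylate carriers to the membrane, lay at 104, 118 and 91.7 CPM and 15.4, 19.3 and 11.5 CPM in WT, a log2 fold change of -2.79 (edgeR adjusted p = 7.2e-06). For Bsg, the other partner, it was -0.09 with an adjusted p of 0.691.

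Slc16a6, a monocarboxylate family member linked to ketone body export in liver, was higher in NK1.1+ cells in both genotypes. It lay at 40.98, 65.9 and 59.2 CPM in WT NK1.1- and 81.97, 117 and 142 CPM in WT NK1.1+ libraries, and at 29.8, 28.9 and 24.3 CPM and 73.2, 80.7 and 79.6 CPM in miR-155KI. The log2 fold changes were 1.00 (edgeR adjusted p = 0.0105) and 1.49 (adjusted p = 0.000282), and the pools did not overlap. The exons of Slc16a6 share 1052 bases, 21.5% of their length, with Amz2 on the opposite strand, and the sources do not state whether the counting used strand, so reads from the shared bases cannot be told apart. Amz2 was not called in any of the 5 comparisons, with log2 fold changes of 0.48 and -0.15 between the pools.

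Slc16a10, a carrier of aromatic amino acids in the same family, rose in WT NK1.1+ cells from 53.3, 57.9 and 62.6 CPM to 105, 132 and 126 CPM without overlap (log2 fold change 1.03, edgeR adjusted p = 0.000306). In miR-155KI it lay at 81.1, 73.5 and 75.2 CPM and 77.6, 69.2 and 118 CPM, groups that overlapped (log2 fold change 0.20, adjusted p = 0.566).

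Of the 16 members placed by family number with the amino acid carriers, 2 were called lower in WT NK1.1+ cells and 3 in miR-155KI NK1.1+ cells. Beside them 10.9% and 6.15% of all genes tested were called lower. None of the 16 was called higher, but the aromatic amino acid carrier Slc16a10, higher in WT, was counted with the monocarboxylate carriers. Slc43a2, a uniporter of large neutral amino acids, was called in both, at 82.1, 72.6 and 83.00 CPM against 49.3, 50.9 and 56.1 CPM in WT and 110.3, 96.05 and 92.6 CPM against 63.1, 68.2 and 53.5 CPM in miR-155KI (log2 fold change -0.64 and -0.70, edgeR adjusted p = 0.00389 and 0.0126). Its relative Slc43a3, a purine nucleobase carrier by function, was lower in WT (log2 fold change -1.74, edgeR adjusted p = 0.014). That call was lost with the WT libraries paired (adjusted p = 0.109) and with the covariate. In miR-155KI Slc43a3 had -1.67 (edgeR adjusted p = 0.0569) and passed as lower when paired (-1.88, adjusted p = 0.0155). It passed there by DESeq2, by limma-voom, with the covariate and in the fit of all 12 libraries, but not by limma on log2(CPM + 1). Slc38a1, a sodium-coupled glutamine carrier, was called lower in miR-155KI, at 391, 379 and 354 CPM against 293, 289 and 281 CPM (log2 fold change -0.38, edgeR adjusted p = 0.0323), as was Slc36a4 (-1.22, adjusted p = 0.044), and in WT, where neither was called, they had -0.11 and -0.34 (adjusted p = 0.696 and 0.208). Slc1a5 and Slc38a2 were not called, with WT log2 fold changes of 0.14 and -0.06.

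Slc3a2 had the same direction in both genotypes and was not called by edgeR in either. It lay at 420.1, 822 and 784 CPM in WT NK1.1- and 522, 1115 and 1293 CPM in WT NK1.1+ libraries (log2 fold change 0.50, edgeR adjusted p = 0.481), and replicate 1 was the lowest of both groups. Within each replicate number the NK1.1+ library was the higher one, and the paired fit gave a log2 fold change of 0.46 with an adjusted p of 0.0115, as the fit with the ratio of Y-linked to Xist RNA as a covariate gave 0.52 with 0.00273. In miR-155KI its log2 fold change was 0.38 (edgeR adjusted p = 0.0651), and it passed by DESeq2 (0.38, adjusted p = 0.0210), when paired (adjusted p = 0.0440), with the covariate (adjusted p = 0.0446) and without miR-155KI NK1.1+ replicate 1 (0.46, adjusted p = 0.0182). Its light chain Slc7a5, the LAT1 carrier of leucine and other large amino acids, had overlapping pools in WT. There Slc7a5 lay at 15.6, 26.7 and 30.8 CPM in NK1.1- and 11.4, 27.1 and 17.2 CPM in NK1.1+ libraries. In miR-155KI Slc7a5 had -1.14 (edgeR adjusted p = 0.145) and passed as lower when paired (-1.36, adjusted p = 0.0387). It also passed there by limma-voom, with no filter on low counts and without miR-155KI NK1.1+ replicate 1. Slc7a6, another light chain, had a log2 fold change of -0.34 in WT (edgeR adjusted p = 0.107). In WT it passed when paired (-0.34, adjusted p = 0.0275) and with the covariate (-0.33, adjusted p = 0.0270).

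Among the 36 mitochondrial carriers 4 were called higher and 3 lower in WT NK1.1+ cells, and 1 was called lower in miR-155KI. The shares of all genes tested were 9.89% higher and 10.9% lower in WT, and 7.92% and 6.15% in miR-155KI. Slc25a5 was lower in both, at 1012, 1010.4 and 1066 CPM in WT NK1.1- and 708, 687 and 623 CPM in WT NK1.1+ libraries and at 907, 887 and 879.8 CPM and 640.0, 689.8 and 644 CPM in miR-155KI. The groups did not overlap, and the log2 fold changes were -0.65 and -0.44 (edgeR adjusted p = 0.00212 and 0.0158). Slc25a4 was lower in WT by a similar amount (-0.65, edgeR adjusted p = 0.00202) and had -0.34 in miR-155KI (adjusted p = 0.178). The phosphate carrier Slc25a3 was not called, at 0.18 and 0.12.

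The aspartate and glutamate carriers, which pass reducing equivalents into mitochondria, went in opposite directions in WT. Slc25a13 (citrin) lay at 11.7, 9.73 and 12.2 CPM in NK1.1- and 3.98, 4.44 and 5.66 CPM in NK1.1+ libraries (log2 fold change -1.29, edgeR adjusted p = 0.00417), whereas Slc25a12 (aralar) lay at 60.6, 61.9 and 55.9 CPM and 95.6, 76.8 and 75.1 CPM (log2 fold change 0.44, adjusted p = 0.0425). In miR-155KI neither was called (-1.19 and -0.11, adjusted p = 0.0514 and 0.702). Slc25a53 and Slc25a40, a candidate mitochondrial glutathione carrier, were higher in WT NK1.1+ cells with log2 fold changes of 1.23 and 0.94 (edgeR adjusted p = 0.00745 and 0.0363).

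Of the 20 metal carriers 3 were called higher and 1 lower in WT NK1.1+ cells, and 3 higher in miR-155KI NK1.1+ cells. Beside them 9.89% of all genes tested were called higher and 10.9% lower in WT, and 7.92% and 6.15% in miR-155KI. Slc11a2, the ferrous iron transporter DMT1, was called in both, at 62.3, 74.3 and 70.4 CPM against 103, 113 and 113 CPM in WT and 63.7, 66.1 and 61.3 CPM against 84.7, 137 and 131 CPM in miR-155KI. No NK1.1+ library fell within the NK1.1- range (log2 fold change 0.63 and 0.89, edgeR adjusted p = 0.00427 and 0.0113). Slc39a13, a zinc carrier of the secretory pathway, was higher in WT (1.12, edgeR adjusted p = 0.0136), and the copper carrier relative Slc31a2 in miR-155KI (1.41, adjusted p = 0.0396). The transferrin receptor Tfrc, which brings in iron upstream of Slc11a2, was lower in miR-155KI (-0.98, adjusted p = 0.00295) and had -0.67 in WT (adjusted p = 0.0654).

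Of the 18 ion exchangers 3 were called higher and 1 lower in WT, and 3 higher and 2 lower in miR-155KI. The shares of all genes tested were 9.89% and 10.9% in WT, and 7.92% and 6.15% in miR-155KI. Slc26a11, a sulfate and chloride carrier, was higher in both, at 16.6, 27.6 and 19.97 CPM and 55.1, 68.95 and 75.7 CPM in WT and 19.6, 21.3 and 24.9 CPM and 51.1, 39.5 and 68.1 CPM in miR-155KI (log2 fold change 1.60 and 1.27, edgeR adjusted p = 0.000265 and 0.00544). Slc9b2, a sodium and proton exchanger of endosomes and lysosomes, was lower in both, at 9.42, 11.6 and 11.1 CPM and 2.01, 3.33 and 3.30 CPM in WT and 16.7, 18.2 and 17.5 CPM and 6.43, 3.98 and 4.54 CPM in miR-155KI (log2 fold change -1.93 and -1.81, edgeR adjusted p = 0.000788 and 0.0056). Both held the pools apart without overlap. The mitochondrial sodium and calcium exchanger Slc8b1 was higher by 0.88 and 1.03 on the log2 scale (edgeR adjusted p = 0.0173 and 0.0272). The bicarbonate carrier Slc4a8 was lower in miR-155KI (-1.51, edgeR adjusted p = 0.00664), with -0.55 in WT, where it passed when paired (-0.57, adjusted p = 0.0350), with the covariate (-0.57, adjusted p = 0.0408) and without WT NK1.1+ replicate 1 (-0.70, adjusted p = 0.0375).

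Slc9a7, a proton exchanger of the trans-Golgi, lay at 2.32, 2.86 and 2.52 CPM in miR-155KI NK1.1- and 6.17, 22.8 and 7.89 CPM in miR-155KI NK1.1+ libraries (log2 fold change 2.26, edgeR adjusted p = 0.0246; 1.34 and 0.00834 in WT). Replicate 2 of miR-155KI NK1.1+ was the highest library for Slc9a7 and Slc31a2, and it also had the highest macrophage marker sum, 880 CPM against 389.7 and 230 CPM in the other libraries of its group. Without it the log2 fold changes were 1.45 for Slc9a7 (adjusted p = 0.0610) and 1.05 for Slc31a2 (adjusted p = 0.0895). The part of macrophage RNA in these values was not tested.

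The phosphate carrier Slc20a1 was higher in NK1.1+ cells in both genotypes, at 119.8, 101 and 92.9 CPM and 145, 150.5 and 168 CPM in WT and 88.1, 82.9 and 72.5 CPM and 146, 157 and 119 CPM in miR-155KI (log2 fold change 0.53 and 0.79, edgeR adjusted p = 0.015 and 0.00664). Slc44a2, of the choline carrier family, lay at 318, 311 and 310.0 CPM and 423, 406 and 426 CPM in WT and 378, 363 and 384 CPM and 487, 474 and 531 CPM in miR-155KI. Its 4 groups did not overlap, and the pool log2 fold changes were 0.39 and 0.41 (edgeR adjusted p = 0.0248 and 0.024). The fatty acid carrier Slc27a1 was lower in NK1.1+ cells (-0.57 and -1.28, edgeR adjusted p = 0.039 and 0.0426) and the urea transporter Slc14a1 higher (0.59 and 0.68, adjusted p = 0.0228 and 0.0116). Of the 18 nucleotide sugar carriers 1 was called higher in each genotype, beside 9.89% of all genes tested in WT and 7.92% in miR-155KI. Slc27a1, Slc14a1, Slc28a2, Slc50a1 and Slc25a12 are described because of their values and lie outside the naming rule for the pool comparisons.

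Single libraries decided some of these calls, and the adjusted p after removal is given for each. Without WT NK1.1+ replicate 3 the members called in WT numbered 26, and without miR-155KI NK1.1- replicate 1, 2 or 3 those called in miR-155KI numbered 9, 14 and 13. In WT, Slc16a3 and Slc20a1 lost their call without NK1.1+ replicate 3 or NK1.1- replicate 2 or 3 (0.0670 to 0.0938 and 0.0608 to 0.0780), Slc39a13 without replicate 3 of either pool (0.0704 and 0.0864), Slc43a3 without NK1.1+ replicate 1 or 3 (0.0631 and 0.0649) and Slc9a7 without NK1.1+ replicate 3 (0.0545). Slc50a1 lost it without NK1.1- replicate 3 (0.0512), Slc25a40 without any one of 4 libraries (0.0815 to 0.147), Slc8b1 without any one of 4 (0.0624 to 0.0882), Slc14a1 of 3 (0.0692 to 0.0991), Slc27a1 and Slc44a2 of 5 (0.0651 to 0.15 and 0.0614 to 0.0992) and Slc25a12 of all 6 (0.0659 to 0.137).

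In miR-155KI the NK1.1- libraries decided most. Slc2a3 lost its call without NK1.1- replicate 3 (0.0544), Slc11a2 and Slc50a1 without replicate 1 or 3 (0.0545 and 0.0685 for Slc11a2, 0.0859 to 0.0986 for Slc50a1), Slc14a1 without replicate 1 or 2 (0.0591 to 0.0751), Slc46a1 without any one of them (0.0594 to 0.0829), and Slc43a2 and Slc4a8 without replicate 1 (0.0790 and 0.0569). Slc25a5, Slc38a1 and Slc44a2 lost it without any one of the NK1.1- libraries or NK1.1+ replicate 3 (0.0640 to 0.0922, 0.0850 to 0.162 and 0.0759 to 0.137). Slc9a7 lost it without any one of 4 libraries (0.061 to 0.11), as did Slc8b1 (0.0507 to 0.144) and Slc27a1 (0.0971 to 0.206), and Slc31a2 and Slc36a4 without any one of 5 (0.0558 to 0.168 and 0.0797 to 0.209). Slc22a3, Slc15a1, Slc29a1, Slc9b2 and Slc26a11 kept their call in both genotypes under all 17 alternatives run for each.

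The second comparison asked how the transporters differ between miR-155KI and WT cells of the same pool. In NK1.1- cells 3 members were higher in miR-155KI and 1 was lower by edgeR, beside 1.93% of all 13304 genes tested called higher and 1.5% called lower, so the members' shares of 1.92% and 0.641% were not above the background. Among genes at the same level minimum 2.16% were called higher and 1.69% lower. The median log2 fold change of the members was 0.04, beside -0.00 over all genes tested. The libraries of the 2 genotypes did not overlap for 29.5% of the members and 23.1% of all genes tested. At an unadjusted p under 0.05 the count was 40 members (25.6%), beside 18.5% of all genes tested. For this share and the overlap, all genes tested include genes below the members' level minimum. DESeq2 called 11 members and limma-voom 4, and the share of all genes called by these programs was not computed. The iNKT subsets differed between these pools. The 11 iNKT17 markers summed to 51.9 to 75.6 CPM in miR-155KI and 180 to 286 CPM in WT (10 called lower), the 10 iNKT1 markers to 772 to 957 CPM and 1323 to 1651 CPM (8 called lower), and the 7 iNKT2 markers to 3944 to 4027 CPM and 2750 to 3004 CPM (3 called higher). No marker of these lists was at 0 in any library, and their part in the transporter differences was not tested.

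Slc16a6 was the member called lower. It lay at 40.98, 65.9 and 59.2 CPM in WT NK1.1- and 29.8, 28.9 and 24.3 CPM in miR-155KI NK1.1- libraries, with no overlap, a log2 fold change of -1.02 (SE 0.18, edgeR adjusted p = 0.00816). In NK1.1+ cells it had -0.56 (adjusted p = 0.315), also without overlap. Amz2, which shares exon bases with it, had log2 fold changes of 0.20 and -0.46 in the 2 pools, neither called.

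Slc29a1 was higher, at 221, 252 and 295 CPM in WT NK1.1- and 530.1, 356 and 472 CPM in miR-155KI NK1.1- libraries, a log2 fold change of 0.80 (SE 0.15, edgeR adjusted p = 0.0166). All miR-155KI libraries were above all WT libraries, and in NK1.1+ cells the log2 fold change was 0.37 (adjusted p = 0.46) with overlapping groups. Slc15a1 was higher as well, at 16.5, 11.96 and 18.6 CPM and 33.5, 26.8 and 29.01 CPM, a log2 fold change of 0.91 (SE 0.18, edgeR adjusted p = 0.0166), and in NK1.1+ cells, where no library passed 5 CPM, it had 0.27 (adjusted p = 0.919). Slc9a9, an endosomal sodium and proton exchanger, lay at 159, 132 and 117 CPM and 205, 201 and 187 CPM, a log2 fold change of 0.52 (SE 0.12, edgeR adjusted p = 0.0349) without overlap, against 0.00 in NK1.1+ cells. All 4 called members had the same sign in the NK1.1+ pools, but none was called there and the value of Slc9a9 rounded to 0.00.

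Slc29a1, Slc15a1 and Slc16a6 also differed between the pools, in comparisons that share the NK1.1- libraries with this one. Slc29a1 had log2 fold changes of 0.80 by genotype and -1.35 by pool in WT, Slc15a1 of 0.91 and -2.73, and Slc16a6 of -1.02 and 1.00. The order of the group means was the same for Slc29a1 and Slc15a1, highest in miR-155KI NK1.1- cells and then WT NK1.1- cells.

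These genotype calls changed with single libraries. Without WT NK1.1- replicate 2 none of the 4 passed, without miR-155KI NK1.1- replicate 1 the call of Slc16a6 alone was left, without miR-155KI NK1.1- replicate 3 those of Slc16a6 and Slc15a1 were left, without WT NK1.1- replicate 3 or miR-155KI NK1.1- replicate 2 the call of Slc9a9 was lost, and without WT NK1.1- replicate 1 the members called numbered 10. With the ratio of Y-linked to Xist RNA as a covariate 0 members passed. The share of all genes called was not computed for these settings.

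In NK1.1+ cells edgeR called 0 members in either direction, beside 0.0231% of the 12991 genes tested called higher and 0% called lower. At an unadjusted p under 0.05 there were 16 members (10.3%), beside 11.8% of all genes tested, and DESeq2 called 1 and limma-voom 0. The members' median log2 fold change was 0.02, the same as over all genes tested. The spread between libraries was wider in this comparison, with a common biological coefficient of variation of 0.369 against 0.211 in NK1.1- cells.

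The smallest p in NK1.1+ cells was that of Slc25a37, mitoferrin-1, which imports iron into mitochondria for haem and iron-sulfur clusters. It lay at 24.5, 24.7 and 25.9 CPM in WT and 12.2, 13.98 and 13.4 CPM in miR-155KI NK1.1+ libraries, a log2 fold change of -0.94 (SE 0.24, unadjusted p = 0.0028 and edgeR adjusted p = 0.245). In NK1.1- libraries it lay at 25.97, 23.2 and 24.04 CPM and 18.2, 17.2 and 14.8 CPM, a log2 fold change of -0.56 (adjusted p = 0.0807). All 6 miR-155KI libraries were below all 6 WT libraries. DESeq2 called it lower in both pools, with an adjusted p of 0.0263 among NK1.1+ cells and, at a log2 fold change of -0.57, of 0.0334 among NK1.1- cells, and the fit of all 12 libraries gave 0.0486. Erythroid markers, which include haemoglobins, summed to 35.9 to 1216 CPM in miR-155KI NK1.1+ and 24.2 to 183 CPM in WT NK1.1+ libraries, and their part was not tested.

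The next members by p were Slc25a36, a mitochondrial pyrimidine nucleotide carrier, Slc39a4, a zinc importer, and Slc3a2. Slc25a36 lay at 79.4, 115 and 138 CPM in WT and 71.96, 62.1 and 70.6 CPM in miR-155KI (log2 fold change -0.72, edgeR adjusted p = 0.269), and Slc39a4 at 50.3, 48.5 and 53.6 CPM and 30.4, 35.5 and 38.9 CPM (log2 fold change -0.56, adjusted p = 0.298). The genotypes did not overlap for either, nor did they for 16.0% of the members and 16.8% of all genes tested in this pool. In NK1.1- cells their log2 fold changes were 0.04 and -0.08.

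**Figure D4:**
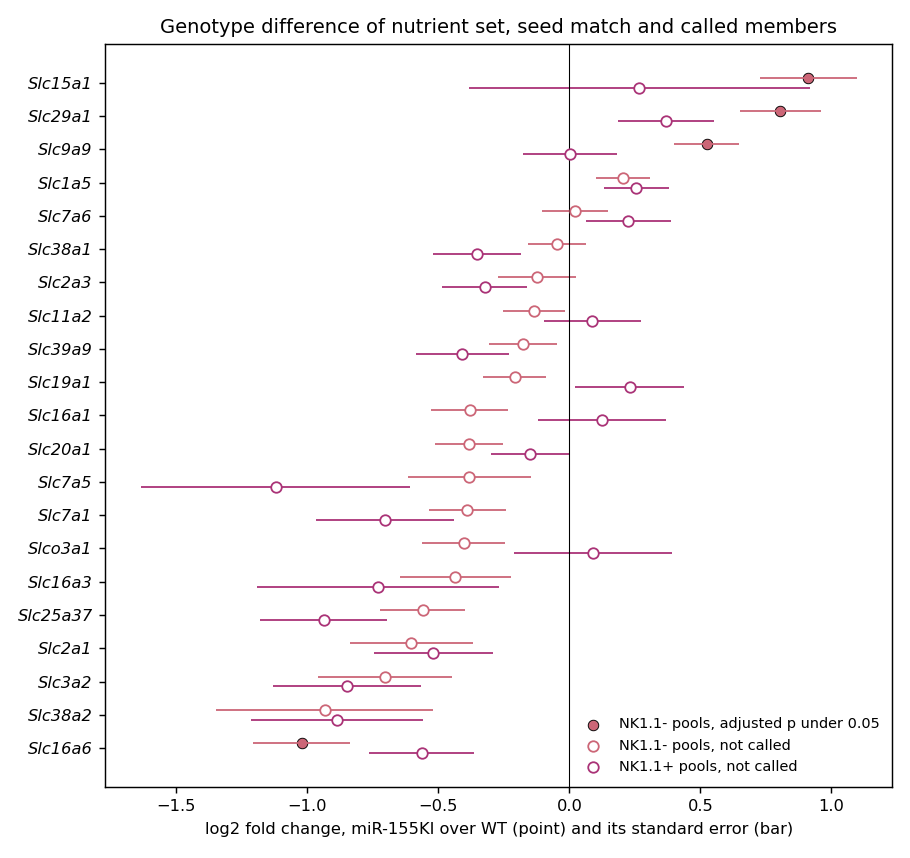
Log2 fold change of miR-155KI over WT with its standard error, in NK1.1- and NK1.1+ pools, for the 14 members of the lymphocyte nutrient set, the 4 members with a miR-155 seed match, the other members called in NK1.1- cells and Slc25a37. The filled points are the 4 members called in NK1.1- cells.

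The transporters that T cells are known to use for growth were taken as a set of 16, of which 14 are members (the iron exporter Slc40a1 and the chloride cotransporter Slc12a2 lay below the minimum). By genotype, 1 of the 16 was called higher in NK1.1- cells (Slc29a1) and 0 in NK1.1+ cells, beside 1.93% and 0.0231% of all genes tested. Below 0 were 12 of 16 and 9 of 16, with medians of -0.29 and -0.24, beside -0.00 and 0.02 over all genes tested. Between the pools, 3 were called higher in both genotypes (Slc2a3, Slc11a2 and Slc20a1). Called lower were 4 in WT (Slc16a1, Slc16a3, Slc29a1 and Slc19a1) and 2 in miR-155KI (Slc38a1 and Slc29a1). Of all genes tested, 9.89% were called higher and 10.9% lower in WT, and 7.92% and 6.15% in miR-155KI. The summed level of the set was 2195 CPM in WT NK1.1- replicate 1 against 3276 and 3032 CPM in replicates 2 and 3, and 2210 CPM in WT NK1.1+ replicate 1 against 3573 and 3479 CPM. In the 6 miR-155KI libraries it was 2363 to 2584 CPM, so that WT replicate 1 lay below the miR-155KI libraries and the other WT libraries above them.

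Slc3a2 and Slc38a2, a glutamine and alanine carrier that rises when amino acids are short, carried most of this split. Slc3a2 lay at 420.1, 822 and 784 CPM in WT NK1.1- and 405, 456 and 404 CPM in miR-155KI NK1.1- libraries (log2 fold change -0.70, SE 0.26, edgeR adjusted p = 0.214), and in NK1.1+ cells at 522, 1115 and 1293 CPM and 484, 617 and 548 CPM (log2 fold change -0.85, SE 0.28, adjusted p = 0.31). WT replicates 2 and 3 were above all miR-155KI libraries of their pool and replicate 1 lay among them. Slc38a2 lay at 264, 684 and 478 CPM and 215, 318 and 226 CPM in NK1.1- and at 241, 698 and 466 CPM and 259.5, 291 and 219 CPM in NK1.1+ cells, with log2 fold changes of -0.93 and -0.89 (edgeR adjusted p = 0.337 and 0.341) and the same place for WT replicate 1. Slc2a1 followed this order in NK1.1- cells, at 73.4, 129 and 135 CPM in WT and 86.96, 72.96 and 65.6 CPM in miR-155KI (log2 fold change -0.60, adjusted p = 0.223).

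Other settings that kept all libraries called some of these members lower in miR-155KI. In NK1.1- cells DESeq2 called Slc3a2 (-0.71, adjusted p = 0.00844) and Slc2a1 (-0.61, adjusted p = 0.0436), as did edgeR with no filter on low counts (-0.66 and -0.56, adjusted p = 2.63e-05 and 0.00161), and the paired fit called Slc38a2 (-0.85, adjusted p = 0.0163). In NK1.1+ cells edgeR with no filter called Slc3a2 (-0.79, adjusted p = 0.00152) and Slc38a2 (-0.83, adjusted p = 0.00142). By contrast limma-voom, RLE scaling and the fit with the ratio of Y-linked to Xist RNA as a covariate called none of Slc3a2, Slc38a2 and Slc2a1 in either pool. All Xist-high libraries are WT, so genotype and sex-linked RNA are partly mixed in the fits of all libraries too.

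Without WT replicate 1 of the pool, edgeR called Slc3a2 lower in miR-155KI among NK1.1- cells (-0.96 on the log2 scale, adjusted p = 0.000308) and likewise among NK1.1+ cells (-1.14, adjusted p = 0.0122). Slc38a2 was then called too (-1.23 and -1.19, adjusted p = 0.00871 and 0.0360), as were Slc2a1 (-0.84, adjusted p = 0.00245) and the arginine carrier Slc7a1 (-0.52, adjusted p = 0.0350) in NK1.1- cells. The WT libraries left are the Xist-high ones and every miR-155KI library is Xist-low, so in that fit genotype and sex-linked RNA cannot be told apart. Within the Xist-low libraries WT has 1 library per pool, which gives no test, and its Slc3a2 levels of 420.1 and 522 CPM stood beside 404 to 456 and 484 to 617 CPM in miR-155KI.

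**Figure D5:**
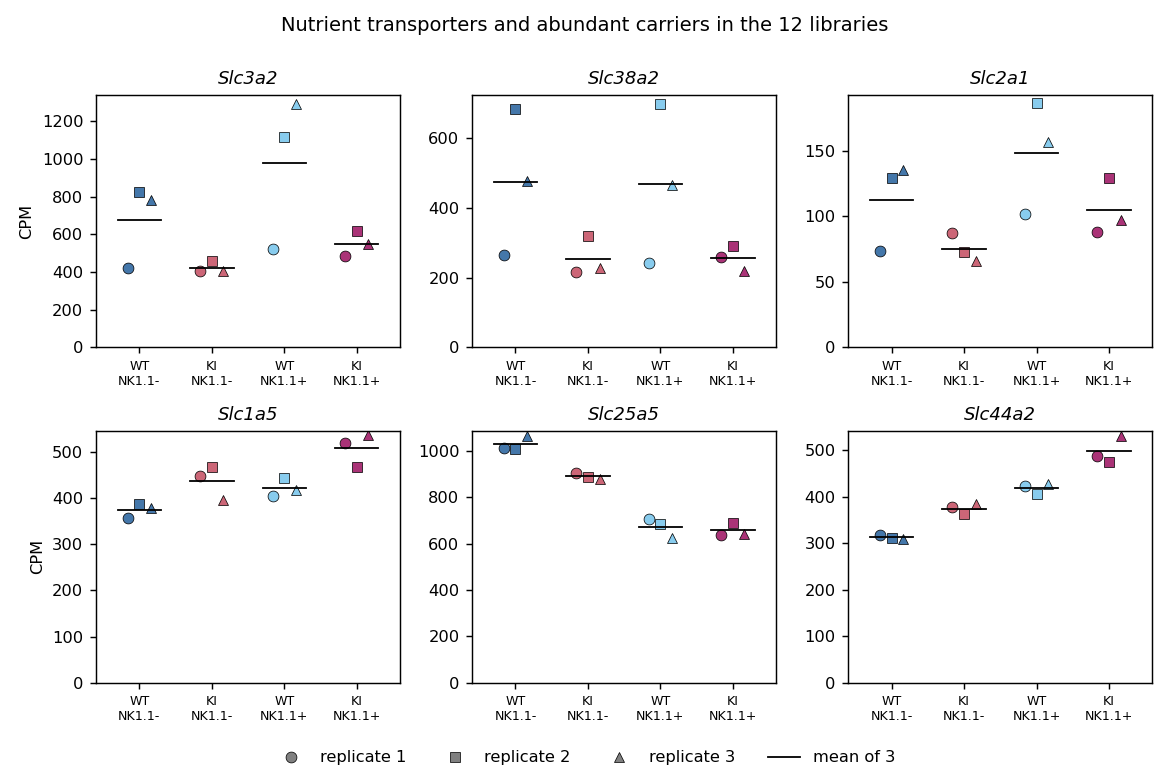
CPM of 6 members in the 12 libraries, by group, with a mark for each replicate and a line at the mean of 3. In the upper row WT replicate 1 (circles) lies well below WT replicates 2 and 3 in both pools, whereas in the lower row the WT replicates lie close together.

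Slc1a5 did not show this split. This glutamine carrier, ASCT2, lay at 356, 388 and 379 CPM in WT NK1.1- and 447, 467 and 395 CPM in miR-155KI NK1.1- libraries, and at 403, 443 and 417 CPM and 518, 468 and 536 CPM in NK1.1+ libraries. The miR-155KI libraries were above the WT libraries in both pools without overlap, but neither difference was called (log2 fold change 0.20 and 0.25, edgeR adjusted p = 0.327 and 0.448). WT replicate 1 was the lowest WT library of both pools for Slc7a5 and Slc7a1 too. Slc7a5 had -0.38 and -1.12 (adjusted p = 0.425 and 0.426), and Slc2a3 had -0.13 and -0.32 (adjusted p = 0.715 and 0.465).

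Genes that sense metals and amino acids, a list of 19 of which 18 were in the table, were not called by genotype in either pool. Of 16 tested, 12 were below 0 in each pool, with medians of -0.27 and -0.37, beside -0.00 and 0.02 over all genes tested. Atf4, the factor that induces Slc3a2, Slc7a5 and Slc38a2 under amino acid stress, lay at 254, 389 and 392 CPM in WT NK1.1- and 216, 263 and 231 CPM in miR-155KI NK1.1- libraries (log2 fold change -0.57, edgeR adjusted p = 0.0957), with WT replicate 1 again the lowest WT library. Between the pools 2 of 17 tested were called higher in WT NK1.1+ cells and 0 lower, beside 9.89% and 10.9% of all genes tested. In miR-155KI 3 of 16 were called higher and 2 lower, beside 7.92% and 6.15%. Txnip, which restrains glucose uptake, was higher in NK1.1+ cells in both genotypes (1.09 and 1.32, edgeR adjusted p = 6.66e-05 and 0.000833), as was Rptor, a subunit of mTOR complex 1 (1.15 and 0.71, adjusted p = 0.000486 and 0.0368). In miR-155KI Atf4 was higher as well (0.56, adjusted p = 0.0223), and Trib3, a pseudokinase that Atf4 induces, and Hif1a, the hypoxia factor, were lower (-2.53 and -0.81, adjusted p = 0.0409 and 0.00319).

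Of 38 transport proteins and partners without an Slc symbol, 34 were tested between the pools in each genotype. In WT 7 were called higher and 2 lower, beside 9.89% and 10.9% of all genes tested. In miR-155KI 4 were called higher and 3 lower, beside 7.92% and 6.15%. None was called by genotype. Called in both genotypes were the calcium pumps Atp2b1 (0.84 and 0.63, edgeR adjusted p = 0.00375 and 0.0176) and Atp2b4 (1.86 and 2.14, adjusted p = 0.000326 and 0.0039), the proton channel Hvcn1 and the lysosomal protein Cln3, all higher in NK1.1+ cells. Emb, described above with the monocarboxylate carriers, was lower in both (-2.79 and -1.96, edgeR adjusted p = 7.2e-06 and 0.0241).

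The test of the genotype difference between the pools called 0 members by edgeR, beside 0.00694% of 14401 genes called higher and 0.0208% called lower. At an unadjusted p under 0.05 there were 9 members (5.77%), beside 8.1% of all genes tested, and DESeq2 and limma-voom called 0. The members with the smallest p were Slc16a10 (-0.86, SE 0.25, adjusted p = 0.323), the organic anion carrier Slco4a1 (1.31, SE 0.43, adjusted p = 0.384), Slc25a12 (-0.58, SE 0.21, adjusted p = 0.46) and Slc4a8 (-0.99, SE 0.36, adjusted p = 0.462). Slco4a1 lay at 23.2, 23.4 and 21.8 CPM in WT NK1.1-, 16.5, 17.00 and 12.9 CPM in miR-155KI NK1.1-, 11.6, 25.1 and 21.2 CPM in WT NK1.1+ and 26.5, 49.4 and 21.6 CPM in miR-155KI NK1.1+ libraries. Its miR-155KI libraries were all below WT in the NK1.1- pool, while in the other pool the groups overlapped. Slc16a10 passed without miR-155KI NK1.1+ replicate 3 (-1.10, adjusted p = 0.0435), and Slco4a1 passed with no filter on low counts (1.36, adjusted p = 0.0233).

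A microRNA represses transcripts whose 3′ UTR pairs with its seed, the bases near its 5′ end. The mature miR-155-5p (RefSeq, GRCm38.p6, chr16:84714143-84714165, plus strand) is shown with its seed, bases 2 to 8, in capitals.
miR-155-5p: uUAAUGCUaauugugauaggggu
The matching site is the reverse complement of the seed followed by A. In GENCODE M21 (GRCm38), 4 of 156 members (2.56%) held it in an annotated 3′ UTR, beside 415 of 11609 genes tested in NK1.1- cells (3.57%). The 4 sites are shown 5′ to 3′ with the site in capitals and up to 11 bases on each side, since they are the 8-base matches to the overexpressed miRNA in the members. Shorter matches were not searched.
Slc38a2 (chr15:96687929-96687936, minus strand): atttatagagcAGCATTAAtccattaaagc
Slc39a9 (chr12:80679698-80679705, plus strand): aataggacaccAGCATTAAccattcaggtt
Slc7a1 (chr5:148328711-148328718, minus strand): gttggctcccaAGCATTAAggaatcttaag
Slco3a1 (chr7:74295384-74295391, minus strand): tattaattaacAGCATTAAttgataaatgc

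None of the 4 was called by genotype by edgeR with all libraries and the low-count filter, and the settings under which Slc38a2 and Slc7a1 passed are given above. The zinc carrier Slc39a9 lay at 50.1, 51.03 and 50.5 CPM in WT NK1.1- and 50.2, 41.3 and 44.3 CPM in miR-155KI NK1.1- libraries (log2 fold change -0.18, edgeR adjusted p = 0.516), which overlapped, and at 51.4, 45.8 and 48.9 CPM and 33.03, 37.4 and 40.8 CPM in NK1.1+ libraries, which did not (log2 fold change -0.41, adjusted p = 0.399). Slc7a1 had log2 fold changes of -0.39 and -0.70 (adjusted p = 0.174 and 0.334) and Slco3a1, an organic anion carrier, of -0.40 and 0.09 (adjusted p = 0.193 and 0.943). All 4 were below 0 in NK1.1- cells and 3 of 4 in NK1.1+ cells, beside 66 and 76 of the 156 members. For Slc38a2 and Slc7a1 the Xist-low WT replicate 1 was the lowest WT library of both pools. Genotype and sex-linked RNA are therefore partly mixed in their values. The part of the sites in these values was not tested.

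Promoters of 300 bases (250 before and 50 after each RefSeq start, GRCm38.p6) were given for 117 of the 156 members and searched on both strands for 5 motifs. The E-box CACGTG, read by MYC, MAX and TFEB, was in a promoter of 21 members (17.9%), beside 8.09% of all 27025 genes with a promoter and 12.4% of the other genes at or over the level minimum. The ETS motif CCGGAAGT was in 6.84% of members, 4.31% of all and 10.7% of those expressed genes, and the GC box GGGCGGGG in 43.6%, 19.6% and 37.7%. The palindromic NRF1 motif and the T-box site AGGTGTGA were each in 0.855% of members, beside 1.07% and 1.48% of all and 2.77% and 0.996% of those expressed genes. Genes with several starts have several promoters and so more chances of a match.

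The E-box members that passed between the pools in both genotypes were Slc20a1 (higher in NK1.1+ cells) and Slc27a1 and Slc29a1 (lower). For each, the 250 bases before the annotated start with an E-box are shown 5′ to 3′ with each E-box in capitals.
Slc20a1 (chr2:129198523-129198772, plus strand): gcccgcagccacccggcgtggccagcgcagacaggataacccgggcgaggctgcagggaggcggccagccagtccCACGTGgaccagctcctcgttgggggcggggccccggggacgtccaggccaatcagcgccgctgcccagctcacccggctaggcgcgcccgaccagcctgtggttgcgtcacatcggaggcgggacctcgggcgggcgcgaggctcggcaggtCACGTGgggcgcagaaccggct
Slc27a1 (chr8:71570344-71570593, plus strand): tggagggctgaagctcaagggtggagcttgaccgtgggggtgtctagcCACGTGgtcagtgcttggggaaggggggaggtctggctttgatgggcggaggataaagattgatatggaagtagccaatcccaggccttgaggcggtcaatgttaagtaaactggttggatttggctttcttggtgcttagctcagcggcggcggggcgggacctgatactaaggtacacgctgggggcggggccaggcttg
Slc29a1 (chr17:45595247-45595496, minus strand): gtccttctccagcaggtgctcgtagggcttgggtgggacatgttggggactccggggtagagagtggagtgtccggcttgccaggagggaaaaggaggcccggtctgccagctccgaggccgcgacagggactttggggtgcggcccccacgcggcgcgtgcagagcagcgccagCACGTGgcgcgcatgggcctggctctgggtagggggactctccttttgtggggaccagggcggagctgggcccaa
The first E-box base lay 175 and 22 bases before the start in Slc20a1, 202 in Slc27a1 and 75 in Slc29a1. Slc20a1, Slc27a1 and Slc29a1 each have other annotated starts, whose promoters lacked the E-box. The starts shown for Slc27a1 and Slc29a1 lie inside the gene, downstream of its outermost annotated start. Which start the cells use was not measured. The members with the motif went in both directions between the pools, 1 called higher and 5 lower of 21 in WT and 2 higher and 2 lower in miR-155KI, beside 9.89% and 10.9% of all genes tested called higher and lower in WT and 7.92% and 6.15% in miR-155KI.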

How the data were processed

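The authors deposited raw counts per gene for 12 libraries and a second table of the same libraries, named CPM, which is a signal equal to the deposited count times 1 factor per library. Labels give bcl2fastq 2.17.1.14 and GRCm38 (mm10), while for aligner, counter and strandedness the sources used here give nothing. The labels name a SMART-Seq v4 kit and the methods a TruSeq kit. Members were chosen on the mean of the second table, at least 5. Tests used edgeR 4.0.16 (TMM, filterByExpr, robust quasi-likelihood) on the counts of the groups compared, with Benjamini-Hochberg adjustment over all genes tested and a threshold of 0.05, and all 156 members were tested in each comparison. The SE is the log2 fold change divided by the root of F. The test was run on simulated data with known changes. Exon lengths and 3′ UTRs came from GENCODE M21. DESeq2 1.42.0, limma 3.58.1, other scaling, filters, a covariate and leaving out libraries were alternatives. The members, roles, lists and tests were chosen with earlier results of these data known.

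Named genes were, per comparison, the 8 called members that rose most and the 8 that fell most at 10 CPM or more in 1 group without overlap, the 4 smallest p where fewer than 3 were called or for the interaction, the 10 highest members, members with the seed match and the nutrient set. Deviations of same-numbered libraries from their group means correlated at 0.374, 0.267 and 0.161 in the WT pools, so these were also fitted with the replicate number as a block. No replicates differed by less than sampling noise. A gene of the list of transport proteins without an Slc symbol is not reported here.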

Additional observations from a re-analysis of the deposited data

How the results depend on the processing

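The members called between the pools in WT numbered 40 and ranged from 26 to 41 when 1 library was left out; limma on log2(CPM + 0.1) of the deposited CPM table gave 24 and the replicate block, which pairs the WT libraries, gave 55 (16 members gained and Slc43a3 lost). In miR-155KI the count was 25 and ranged from 9 to 36 with 1 library left out. There DESeq2 gave 41, the fit of all 12 libraries 42, limma on log2(CPM + 1) 12 and limma on log2(CPM + 0.1) 9. Of the miR-155KI replicate numbers not every pair correlated above 0.1 (0.134, 0.0915 and 0.0704), and the block gave 34. For miR-155KI against WT in NK1.1- cells the count was 4 and ranged from 0 to 10 with 1 library left out. DESeq2 gave 11, no low-count filter 10, limma on log2(CPM + 1) 1, on log2(CPM + 0.1) 0, the Y-linked to Xist covariate 0, the fit of all 12 libraries 2 and the replicate block 6. In NK1.1+ cells the count was 0 and ranged from 0 to 3 with 1 library left out, DESeq2 and the fit of all 12 libraries gave 1 and no low-count filter 2. The interaction count was 0, ranged from 0 to 1 with 1 library left out and was 1 without a low-count filter. The replicate block within genotype, an alternative chosen after seeing the data, gave 0. Of 45 called results of named genes 21 kept their call in every alternative and 0 reversed. The share of all genes called was not computed for the alternatives, so their member counts stand without a background. The causes of these changes were not tested. A minimum of 10 in place of 5 leaves 130 members. The NK1.1+ genotype comparison had the widest spread between libraries (common biological coefficient of variation 0.369).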
